A study of Homo sapiens with 8 samples.

Results

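The genes described here are 56 DNA damage signalling and repair genes, taken by symbol from the 30434 genes of a count table and all found in it. They fall into 8 role groups: 6 checkpoint genes, 2 p53 regulators, 16 genes of homologous recombination, 6 of end joining, 11 of the Fanconi anaemia pathway, 3 of mismatch repair, 6 of nucleotide excision repair and 6 of base excision repair or direct reversal. All 56 passed the filter on low counts, with RAD51B the lowest (24 to 47 counts a library).

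RNA was sequenced from SKBR3, an established human breast cancer line in which the receptor gene ERBB2 (HER2) is amplified. Of the 8 libraries, 4 came from control cells labelled wild type and 4 from a stable line in which FOXA1, a pioneer factor that opens chromatin at enhancers of luminal breast cells, was knocked down. The knockdown line was made with lentiviruses carrying 3 short hairpin RNAs against FOXA1, and both groups grew in the same serum-containing medium with no DNA-damaging agent named. Whether the controls carried a control vector, whether the line is 1 clone, and whether replicates were separate cultures is not given in the sources used here. The p-values therefore measure the spread between these libraries, which may be technical, and an effect of the hairpins, of selection or of line history cannot be told apart from that of FOXA1.

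Cells sense broken or unreplicated DNA through the kinases ATM and ATR, whose signals pass through CHEK2 and CHEK1 to the cell cycle machinery and to p53. Double-strand breaks are rejoined directly by end joining or copied from the sister chromatid by homologous recombination. Crosslinks between strands need the Fanconi anaemia proteins, mispaired bases the mismatch repair proteins, bulky lesions nucleotide excision, and small base lesions base excision. BRCA1, BRCA2 and PALB2 are breast cancer susceptibility genes, and tumours that lack their function are sensitive to inhibitors of PARP1.

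FOXA1 itself had 189 to 193 CPM (counts per 1000000 of a library's TMM-scaled total) in the 4 control libraries and 3.56 to 4.25 CPM in the 4 knockdown libraries. That is a log2 fold change of -5.60 (SE 0.06, edgeR adjusted p = 3.18e-30). The control libraries held 21838121 to 23786684 counts each and the knockdown libraries 19087878 to 23503753. A count of 3 corresponds to between 0.126 and 0.157 CPM. The SKBR3 epithelial markers KRT8 and KRT18 were at 2175 CPM or more in every library, whereas the summed level of all 9 epithelial markers was 19097 to 21265 CPM in control and 12116 to 13035 CPM in knockdown (4 called higher, 4 lower). ERBB2, the amplified receptor gene of this line, was at 6990 to 7742 CPM in control and 1269 to 1394 CPM in knockdown (log2 fold change -2.45), and KRT19 (-1.87), KRT7 (-1.79) and GRB7 (-1.54) fell as well. Of 6 fibroblast markers, 3 were tested (2 higher, 1 lower), and the sum was 5.26 to 6.97 CPM in control and 10.8 to 11.9 CPM in knockdown, with DCN at 0.046 CPM or less. COL3A1 went from 0.046 CPM or less (at most 1 count a library) to 4.12 to 4.58 CPM, and PDGFRB from 0.317 to 0.569 CPM to 2.19 to 3.31 CPM (log2 fold change 2.78). For 5 leukocyte markers the sum was 1.14 to 1.76 and 1.34 to 1.8 CPM (3 tested, 1 higher, 1 lower), with PTPRC at 0.137 CPM or less. For 4 endothelial markers it was 20.7 to 22.1 and 19.8 to 22.4 CPM (2 tested, 1 higher, 1 lower), mostly CDH5, with PECAM1 at 0.272 CPM or less. LUM and CD3E were not analysed here, and the part of these markers in the results was not tested.

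The summed level of 17 genes of G2 and mitosis was 2652 to 2963 CPM in control and 3985 to 4184 CPM in knockdown, and 16 of the 17 were called higher. Of 18 S phase genes 11 were called higher and 5 lower, where 39.4% and 37.7% of all genes tested were. Their summed level was 2636 to 2675 CPM in control and 2894 to 2969 CPM in knockdown. Many repair genes are transcribed with the cell cycle, and the part of these differences in the values that follow was not tested. Control replicate 3 had the lowest control value for 31 of the 56 members, against 7 to 10 for each of the other control libraries.

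Of the 56 members, 25 were called higher and 14 lower in knockdown, and 17 were not called (edgeR's quasi-likelihood test with Benjamini-Hochberg adjustment over 16430 genes, adjusted p under 0.05). Among all genes tested, 39.4% were called higher and 37.7% lower, so a call alone sets no member apart from the transcriptome. The counts of each role group below are to be read beside these same shares. The groups did not overlap for 37 members, where 72% of all genes tested did not overlap. With library totals in place of TMM scaling the split was 34 higher and 11 lower, against 25 and 14, and the median of all genes moved by 0.08 on the log2 scale. The members' median log2 fold change was 0.11 (quartiles -0.14 and 0.48), beside 0.02 (quartiles -0.50 and 0.53) for all genes tested.

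Most members moved by less than 2-fold. FANCE was the 1 member called at least 2-fold higher, where the share of all genes was 14.9%, and LIG4 the 1 called at least 2-fold lower, where it was 13.4%. XRCC3 lay just under the threshold with a log2 fold change of 1.00 (0.999), and was past it with several other settings. Among the genes of this same fit that averaged at least 50 counts, 2 of 55 members (3.64%) differed by 2-fold or more either way, as did 2913 of 12420 genes (23.5%). A refit on such genes alone put XRCC3 past the threshold too (1.01), for 2 members higher and 1 lower. The median size of the log2 fold change was 0.37 for those 55 members and 0.45 for those 12420 genes. In bulk RNA, fewer cells expressing a gene and less of its RNA per cell cannot be told apart.

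**Figure D1:**
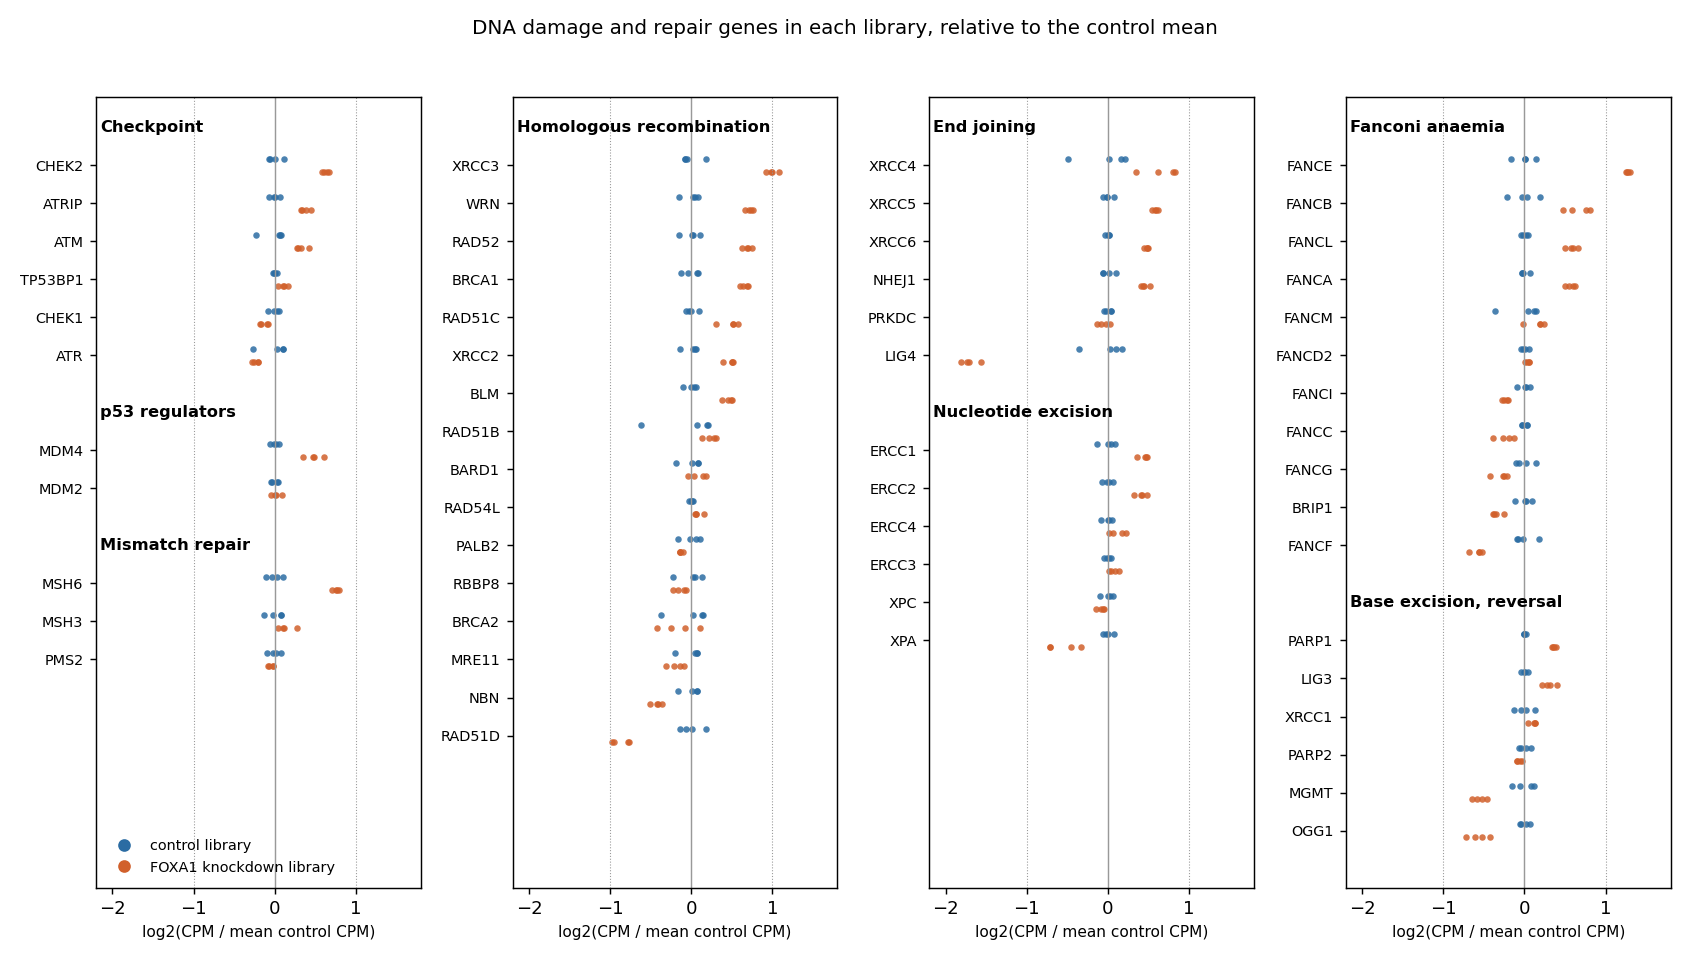
Each of the 56 members in each library, as log2 of its CPM over the mean control CPM, by role group and sorted by fitted fold change (blue: 4 control libraries; orange: 4 FOXA1 knockdown libraries; dotted lines: 2-fold). LIG4 lies far to the left and FANCE far to the right, and 37 of the 56 members show no overlap between the groups.

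The 4 members with the largest falls and rises were LIG4 and RAD51D, and FANCE and XRCC3. Their RefSeq promoter windows (GRCh38.p14, 250 bases before to 50 after the annotated start, 5′ to 3′ on the gene's strand) are shown because these genes carry the extremes of the set. Capitals mark matches to the CCAAT box, the letters CCAAT on either strand.
LIG4, chr13:108218300-108218599, minus strand: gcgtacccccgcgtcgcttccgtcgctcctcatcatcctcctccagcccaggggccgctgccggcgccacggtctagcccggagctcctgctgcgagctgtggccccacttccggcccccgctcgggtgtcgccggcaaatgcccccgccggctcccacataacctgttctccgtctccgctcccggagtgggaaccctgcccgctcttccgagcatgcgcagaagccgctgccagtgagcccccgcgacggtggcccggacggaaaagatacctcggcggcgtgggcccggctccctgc
RAD51D, chr17:35119709-35120008, minus strand: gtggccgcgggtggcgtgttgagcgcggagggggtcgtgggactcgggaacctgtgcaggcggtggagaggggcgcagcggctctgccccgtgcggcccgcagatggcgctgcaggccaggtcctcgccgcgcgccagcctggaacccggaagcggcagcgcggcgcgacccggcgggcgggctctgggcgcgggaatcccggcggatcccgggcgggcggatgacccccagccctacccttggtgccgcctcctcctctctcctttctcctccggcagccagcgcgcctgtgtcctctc
XRCC3, chr14:103715402-103715701, minus strand: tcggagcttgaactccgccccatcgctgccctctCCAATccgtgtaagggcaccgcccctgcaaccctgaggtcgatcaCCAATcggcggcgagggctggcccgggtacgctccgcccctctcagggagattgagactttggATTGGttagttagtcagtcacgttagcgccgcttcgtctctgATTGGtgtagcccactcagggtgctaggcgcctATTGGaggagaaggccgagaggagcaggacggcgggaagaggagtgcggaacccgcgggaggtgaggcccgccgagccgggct
FANCE, chr6:35452088-35452387, plus strand: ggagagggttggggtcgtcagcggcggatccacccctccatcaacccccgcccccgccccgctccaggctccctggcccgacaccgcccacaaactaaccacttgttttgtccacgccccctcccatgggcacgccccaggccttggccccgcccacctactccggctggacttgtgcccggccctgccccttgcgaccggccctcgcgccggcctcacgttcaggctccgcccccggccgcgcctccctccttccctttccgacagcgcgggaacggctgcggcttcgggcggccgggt
The XRCC3 window held 5 CCAAT matches, 216, 171, 108, 66 and 33 bases before the start, counting the first base of each. The windows of LIG4, RAD51D and FANCE held none of the motifs searched. LIG4, RAD51D and FANCE also had a GC content of 72.3%, 76% and 73.7%, beside 64.3% for XRCC3, a median of 64.3% over the members' windows and one of 58.3% over all windows. A match is a description of the letters only.

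All 6 checkpoint genes were called, 4 higher and 2 lower, where 77.1% of all genes tested were called. CHEK2 (ENSG00000183765, chr22:28687743-28742422 in GENCODE 29 on GRCh38, as for all positions of genes here), the kinase that ATM activates, had 23.2, 22.3, 22.0 and 25.2 CPM in control replicates 1 to 4. In knockdown it had 35.2, 34.8, 36.3 and 36.7 CPM. Every knockdown library lay above every control library, with a log2 fold change of 0.62 (SE 0.05, adjusted p = 7.33e-11), the largest rise of this group. ATM (ENSG00000149311, chr11:108222484-108369102), the kinase recruited to double-strand breaks, had 42.5, 41.8, 34.1 and 42.05 CPM in control and 48.4, 54.0, 50.25 and 49.1 CPM in knockdown. It rose by 0.33 on the log2 scale (SE 0.08, adjusted p = 5.81e-05), and control replicate 3 stood below the other control libraries. ATRIP, the partner that brings ATR to single-stranded DNA, rose by 0.37 (SE 0.04), from 18.3 ± 0.73 to 23.8 ± 0.95 CPM (SD, n = 4). Of its annotated exon bases 27.9% are shared with TREX1 on the same strand, whose counts averaged 277.75 in control and 199.5 in knockdown.

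ATR (ENSG00000175054, chr3:142449235-142578826), the kinase that answers stalled replication, had 52.2, 54.99, 42.6 and 55.3 CPM in control. Its knockdown values were 42.9, 44.5, 44.4 and 42.2 CPM. The groups overlapped through control replicate 3, and the log2 fold change was -0.24 (SE 0.09, adjusted p = 0.00467). With library totals as the scaling the adjusted p for ATR was 0.0677. CHEK1 (ENSG00000149554, chr11:125625136-125676255), the kinase downstream of ATR, had 37.0, 37.9, 34.9 and 38.5 CPM in control and 34.8, 35.1, 32.9 and 32.8 CPM in knockdown. Its call was weak, with a log2 fold change of -0.13 (SE 0.04, adjusted p = 0.0217) and an adjusted p above 0.05 in 6 of the alternatives, among them those without control replicate 2 (0.0524), control replicate 4 (0.0612), knockdown replicate 3 (0.067) or knockdown replicate 4 (0.0657). TP53BP1, which shields broken ends from resection, rose by 0.11 (SE 0.03, adjusted p = 0.0238), from 60.4 ± 0.90 to 65.02 ± 2.36 CPM (SD, n = 4). Without control replicate 1, control replicate 4 or knockdown replicate 3 its adjusted p was 0.0646, 0.0567 and 0.0796. TP53BP1 shares 28.7% of its exon bases with TUBGCP4 on the opposite strand, and CHEK1 1.22% with STT3A on its own strand, which averaged 7711.25 counts in control and 3784.5 in knockdown.

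Of the 2 p53 regulators, MDM4 rose and MDM2 was not called. MDM4 (ENSG00000198625, chr1:204516379-204558120), which binds p53 and blocks its activity, had 35.9, 34.4, 33.5 and 35.1 CPM in control and 44.4, 52.8, 48.4 and 48.2 CPM in knockdown. The groups did not overlap, and the log2 fold change was 0.48 (SE 0.06, adjusted p = 6.9e-09). MDM2 (ENSG00000135679, chr12:68808176-68850686), the ubiquitin ligase that is both an inhibitor and a transcriptional target of p53, had 87.4, 86.4, 82.4 and 82.5 CPM in control. In knockdown it had 85.2, 90.5, 82.3 and 85.6 CPM, spread around the control values, with a log2 fold change of 0.02 (SE 0.04, adjusted p = 0.64). Of 22 other listed p53 targets 20 were tested, with 13 called higher and 5 lower, where 39.4% and 37.7% of all genes were. Their median log2 fold change was 0.55. TNFRSF10B, a death receptor, had 20.9 to 25.3 CPM in control and 66.3 to 72.4 CPM in knockdown (log2 fold change 1.55, SE 0.07, adjusted p = 1.63e-18). TIGAR, a regulator of sugar phosphate metabolism, had 17.2 to 18.3 and 43.5 to 45.6 CPM (1.33, SE 0.03, adjusted p = 2.97e-18). Among targets averaging at least 50 counts the largest falls were of TP53INP1, from 5.83 ± 0.86 to 0.45 ± 0.04 CPM (log2 fold change -3.69, SE 0.13), and of CDKN1A, the inhibitor of cyclin-dependent kinases, from 8.34 ± 1.2 to 1.76 ± 0.25 CPM (-2.24, SE 0.15; SD, n = 4). PHLDA3, under that mean and named after its value was seen, fell from 1.96 ± 0.09 to 0.166 ± 0.086 CPM (SD, n = 4; -3.50, SE 0.32).

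Among the 16 genes of homologous recombination, 7 were called higher, 3 lower and 6 not at all, with a median log2 fold change of 0.16. BRCA1 (ENSG00000012048, chr17:43044295-43170245), which promotes resection and the loading of the recombinase, had 21.9, 21.9, 19.0 and 20.1 CPM in control. Its knockdown values were 33.4, 33.8, 31.6 and 32.2 CPM, all above every control library. The log2 fold change was 0.66 (SE 0.05, adjusted p = 6.51e-11). BARD1, the obligate partner of BRCA1, was not called, at 30.5 ± 2.67 and 32.3 ± 2.20 CPM (SD, n = 4, adjusted p = 0.239). BRCA2 (ENSG00000139618, chr13:32315474-32400266), which delivers the recombinase to resected ends, had 15.3, 14.2, 10.8 and 15.5 CPM in control and 11.7, 15.01, 13.2 and 10.4 CPM in knockdown. The values overlapped across their range, with a log2 fold change of -0.15 (SE 0.17, adjusted p = 0.36). PALB2, the bridge between BRCA1 and BRCA2, was at 21.8 ± 1.71 and 19.9 ± 0.26 CPM (SD, n = 4, adjusted p = 0.0504). Without control replicate 3, in which BRCA2 and PALB2 had their lowest control value, both were called lower (adjusted p = 0.0253 and 0.00371).

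The genes that act with the recombinase as paralogs split within their own family. XRCC3 (ENSG00000126215, chr14:103697609-103715504), partner of RAD51C, had 18.6, 18.6, 22.3 and 19.0 CPM in control and 37.3, 39.2, 39.0 and 41.5 CPM in knockdown. Its level was 200% of control (log2 fold change 1.00, SE 0.07, adjusted p = 5.52e-14), the largest rise of this group. Of its annotated exon bases, 76.7% overlap KLC1 on the opposite strand, and KLC1 averaged 1673.5 counts in control and 1349.5 in knockdown. Whether reads shared with KLC1 entered the XRCC3 values was not tested. RAD51D (ENSG00000185379, chr17:35092208-35121522), partner of XRCC2, had 10.2, 8.52, 9.01 and 8.09 CPM in control. It had 5.22, 5.24, 4.53 and 4.62 CPM in knockdown, 54.8% of the control mean, with no overlap (log2 fold change -0.86, SE 0.09, adjusted p = 1.63e-08). RAD51C rose by 0.48 (SE 0.07) and XRCC2 by 0.48 (SE 0.06), while RAD51B was not called at 1.58 ± 0.38 and 1.86 ± 0.10 CPM (SD, n = 4, adjusted p = 0.246).

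The helicases WRN and BLM, which unwind recombination intermediates, both rose. WRN went from 21.8 ± 1.51 to 35.9 ± 1.02 CPM (log2 fold change 0.72, SE 0.06), and BLM from 24.95 ± 1.19 to 34.2 ± 1.28 CPM (0.45, SE 0.04; SD, n = 4). RAD52, an annealing protein, rose by 0.69 (SE 0.06), from 8.71 ± 0.66 to 14.1 ± 0.52 CPM (SD, n = 4). Of the break-sensing MRE11 complex, NBN fell from 510.4 ± 38.7 to 379.7 ± 15.9 CPM (log2 fold change -0.43, SE 0.06, adjusted p = 9.61e-07; SD, n = 4). MRE11, its nuclease, fell by 0.19 (SE 0.08, adjusted p = 0.00787), with overlapping groups and adjusted p values of 0.0533 with upper-quartile scaling and 0.141 with library totals. RBBP8 (CtIP), which starts resection with MRE11, was at 34.97 ± 3.6 and 31.9 ± 1.68 CPM (SD, n = 4, adjusted p = 0.0666), and at an adjusted p of 0.000773 without control replicate 3. RAD54L, a motor protein of strand exchange, was at 31.5 ± 0.54 and 33.35 ± 1.27 CPM (SD, n = 4, adjusted p = 0.13), although its groups did not overlap. RAD54L shares 25.1% of its exon bases with LRRC41 on the opposite strand.

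End joining showed the largest single fall of the 56 genes beside rises in its other parts. LIG4 (ENSG00000174405, chr13:108207439-108218368), the ligase that seals the break, had 430, 392, 288 and 435 counts in the control libraries. In knockdown it had 117, 128, 116 and 115 counts. As CPM these were 19.7, 17.8, 13.7 and 18.7 against 4.97, 5.24, 5.90 and 5.31, so that the lowest control library was more than 2-fold above the highest knockdown library. LIG4 thus fell to 30.7% of control, 3.27-fold lower (log2 fold change -1.71, SE 0.13, adjusted p = 4.98e-12). XRCC4 (ENSG00000152422, chr5:83077498-83353787), the scaffold that binds and stabilises LIG4, had 4.16, 4.62, 2.94 and 4.78 CPM in control and 7.34, 6.34, 7.22 and 5.27 CPM in knockdown. It rose by 0.66 on the log2 scale (SE 0.19, adjusted p = 0.00019), the widest error among the called members, and the groups did not overlap.

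The Ku proteins, which form the ring that grips a broken end, rose together with small errors. XRCC5 (Ku80) had 284 to 310 CPM in control and 431 to 454 CPM in knockdown (log2 fold change 0.58, SE 0.03), and XRCC6 (Ku70) 354 to 367 and 495 to 509 CPM (0.48, SE 0.01). NHEJ1 (XLF), a filament partner of XRCC4, rose by 0.45 (SE 0.04), from 21.2 ± 1.12 to 29.1 ± 1.00 CPM (SD, n = 4). NHEJ1 shares 65.4% of its exon bases with an unnamed gene (ENSG00000280537) on the same strand, which averaged 6 counts in control and 2.5 in knockdown. PRKDC (ENSG00000253729), the kinase that Ku recruits, had 632.9, 660.5, 623 and 658.5 CPM in control. It had 584.9, 658.3, 608.2 and 631.4 CPM in knockdown, overlapping the controls, and was not called (log2 fold change -0.05, SE 0.04, adjusted p = 0.19). Without knockdown replicate 2, the highest knockdown library, its adjusted p was 0.0474.

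**Figure D2:**
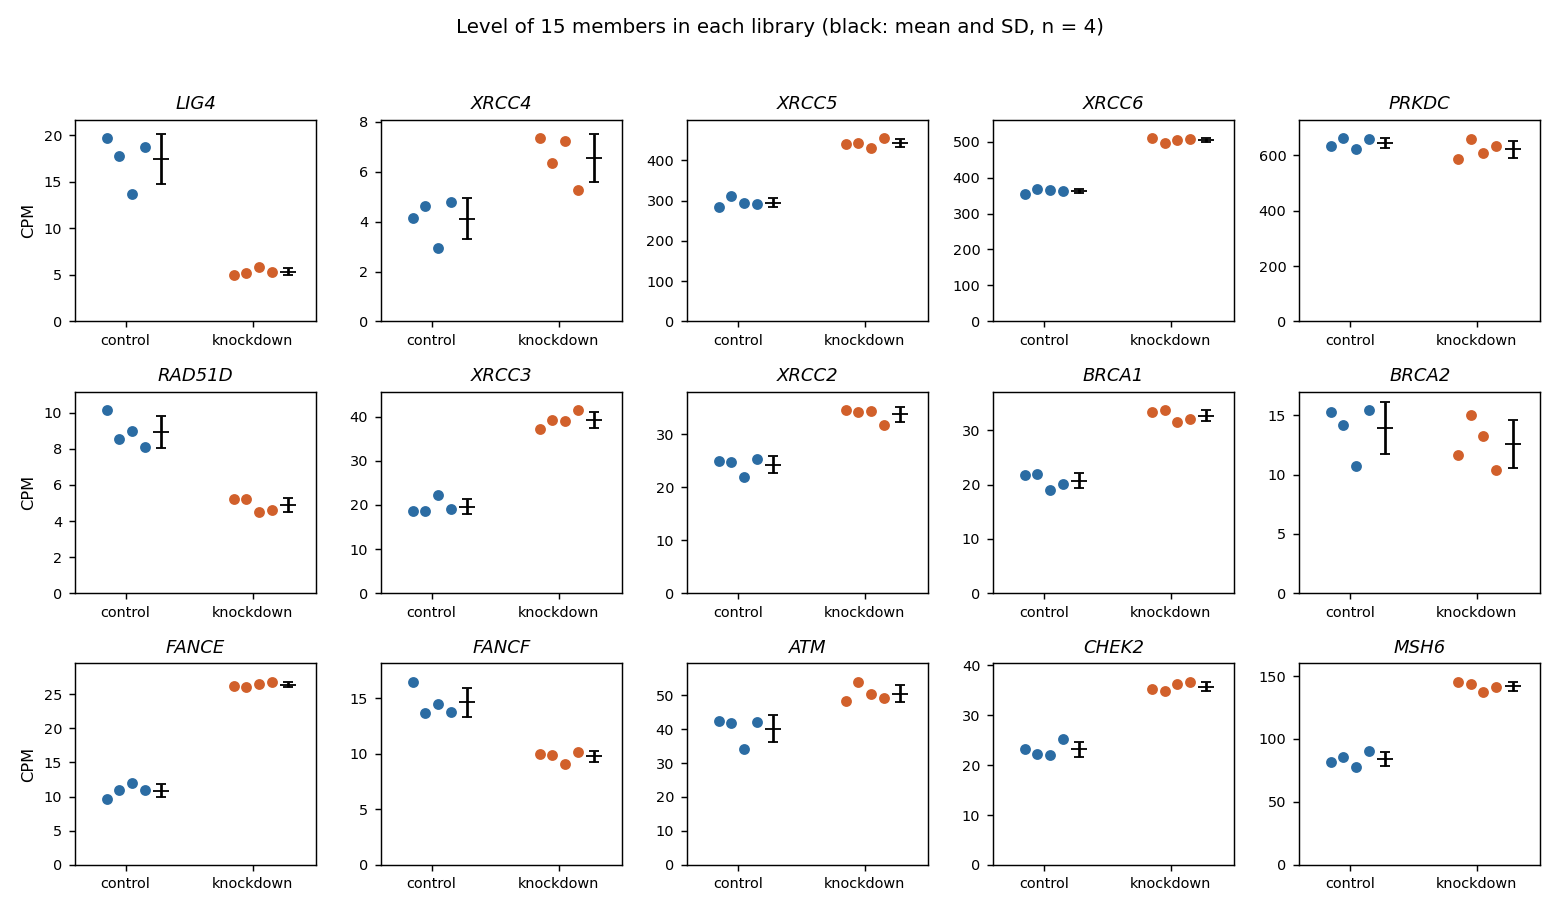
CPM of 15 members in each library (blue: control; orange: FOXA1 knockdown; black: mean and SD, n = 4), each panel with its own axis from 0. LIG4 falls from 13.7 to 19.7 CPM in control to 4.97 to 5.90 CPM in knockdown while XRCC4, XRCC5 and XRCC6 rise, and BRCA2 and PRKDC overlap between the groups.

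The 11 Fanconi anaemia genes were split, with 4 called higher, 5 lower and 2 not called. Of the core complex, the ubiquitin ligase that marks FANCD2 and FANCI at a crosslink, FANCE rose most. FANCE (ENSG00000112039, chr6:35452356-35467103), which links the core complex to FANCD2, had 212, 241, 253 and 253 counts in control and 615, 635, 520 and 580 counts in knockdown. Scaled, it went from 10.9 ± 0.94 to 26.3 ± 0.37 CPM (SD, n = 4), 2.42-fold higher with no overlap (log2 fold change 1.28, SE 0.06, adjusted p = 2.09e-15). FANCF (ENSG00000183161, chr11:22622890-22625841), an adaptor of the same complex, had 16.5, 13.7, 14.5 and 13.8 CPM in control. It fell to 9.93, 9.90, 9.05 and 10.1 CPM in knockdown (log2 fold change -0.58, SE 0.07, adjusted p = 2e-07). FANCB (0.66, SE 0.11), the catalytic subunit FANCL (0.58, SE 0.04) and FANCA (0.57, SE 0.04) rose on the log2 scale. FANCG (-0.29, SE 0.07) and FANCC (-0.24, SE 0.06) fell, so that the subunits of this 1 complex moved in both directions. FANCA shares 23.6% of its exon bases with ZNF276, and FANCL 18.7% with VRK2, both on the opposite strand.

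FANCM, the translocase that anchors the core complex, was at 13.3 ± 2.00 and 14.8 ± 1.14 CPM (SD, n = 4, adjusted p = 0.144). FANCD2, the substrate of the ligase, was at 41.2 ± 1.26 and 42.3 ± 0.71 CPM (SD, n = 4, adjusted p = 0.434). FANCI, its partner on DNA, fell from 139.0 ± 6.34 to 118.1 ± 2.56 CPM (SD, n = 4; log2 fold change -0.24, SE 0.04, adjusted p = 4.59e-06), and shares 5.9% of its exon bases with POLG on the opposite strand. BRIP1 (FANCJ), the helicase bound by BRCA1, fell by 0.34 (SE 0.05), from 10.0 ± 0.58 to 7.95 ± 0.34 CPM (SD, n = 4).

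MSH6 was the 1 mismatch repair gene of 3 that was called. MSH6 (ENSG00000116062, chr2:47695530-47810101), which recognises single mispairs, had 81.9, 85.6, 77.8 and 90.55 CPM in control and 145.5, 143.6, 137.1 and 141.3 CPM in knockdown. All knockdown libraries lay above all controls, with a log2 fold change of 0.76 (SE 0.05, adjusted p = 1.81e-14). MSH6 shares 16.2% of its exon bases with FBXO11 on the opposite strand, which averaged 1563 counts in control and 2289.5 in knockdown. MSH3, which recognises larger loops in the place of MSH6, was at 21.5 ± 1.47 and 23.7 ± 1.63 CPM (SD, n = 4, adjusted p = 0.0502). PMS2, the nuclease subunit, was at 59.8 ± 2.90 and 57.9 ± 1.29 CPM (SD, n = 4, adjusted p = 0.329). Its value is uncertain, since near-identical copies such as PMS2P1, with 631.75 counts on average in control and 687 in knockdown, can share its reads.

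Of the 6 nucleotide excision genes, 2 were called higher, 1 lower and 3 not. ERCC1 (ENSG00000012061, chr19:45407333-45478828), the partner of the nuclease ERCC4 (XPF), had 35.5, 31.7, 36.7 and 34.8 CPM in control. Its knockdown values of 48.2, 44.6, 48.6 and 47.8 CPM did not overlap them (log2 fold change 0.45, SE 0.05, adjusted p = 1.72e-08). ERCC1 shares 28.6% of its exon bases with POLR1G on the opposite strand, which averaged 942.5 counts in control and 1300.75 in knockdown. ERCC2 (XPD), a helicase of the transcription factor TFIIH, rose by 0.41 (SE 0.04), from 38.7 ± 1.57 to 51.4 ± 2.21 CPM (SD, n = 4). XPA (ENSG00000136936, chr9:97674909-97697357), which checks the lesion in the opened DNA, had 10.5, 9.52, 9.96 and 9.73 CPM in control and 6.07, 6.055, 7.88 and 7.25 CPM in knockdown. It fell without overlap, by 0.55 on the log2 scale (SE 0.10, adjusted p = 8.88e-06). ERCC3 (XPB, adjusted p = 0.121), ERCC4 (0.0581) and XPC, the damage sensor (0.0974), were not called, with log2 fold changes of 0.07, 0.12 and -0.09. Without control replicate 3 XPC was called lower (adjusted p = 0.0126), and ERCC4 was called higher without knockdown replicate 1 (0.0496) or 3 (0.0257).

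Of the 6 genes of base excision and direct reversal, 2 rose and 2 fell. PARP1 (ENSG00000143799, chr1:226360691-226408079), the sensor of nicks that builds poly(ADP-ribose), had 428, 434.3, 429.5 and 429.7 CPM in control. It had 551, 552.2, 544.7 and 564.6 CPM in knockdown, an increase with little spread in either group (log2 fold change 0.36, SE 0.01, adjusted p = 5.46e-11). LIG3, the ligase that closes single-strand nicks, rose by 0.31 (SE 0.04), from 45.2 ± 1.19 to 55.9 ± 2.91 CPM (SD, n = 4). LIG3 shares 29.1% of its exon bases with RFFL on the opposite strand. OGG1 (ENSG00000114026, chr3:9749944-9788219), the glycosylase for oxidised guanine, had 18.6, 19.2, 17.8 and 17.7 CPM in control and 12.7, 11.1, 12.1 and 13.6 CPM in knockdown. It fell to 67.5% of control (log2 fold change -0.57, SE 0.07, adjusted p = 5.51e-08), and shares 25% of its exon bases with CAMK1 on the opposite strand, which had 7 counts or fewer in every library. OGG1 also shares 4.08% of its exon bases with TADA3 on the opposite strand, which averaged 601 counts in control and 495.75 in knockdown. MGMT, which removes methyl groups from guanine, fell by 0.55 (SE 0.07, adjusted p = 0.000608), from 3.51 ± 0.30 to 2.39 ± 0.13 CPM (SD, n = 4). The scaffold XRCC1 (adjusted p = 0.0759) and the enzyme PARP2 (0.197) were not called, at log2 fold changes of 0.11 and -0.07. PARP2 overlaps an unnamed gene (ENSG00000259001) on the opposite strand over 104 bases, and that gene had 0 counts in every control library and 1470 to 1870 in the knockdown libraries. Without control replicate 3 XRCC1 was called higher (adjusted p = 0.00848).

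Proteins that work as partners were compared through the ratio of their counts within each library, which does not depend on how libraries are scaled. The change of a ratio between groups is read here, not the ratio itself, since counts depend on gene length. Of 18 pairs, 14 changed (two-sided exact permutation test over 70 divisions of the libraries, p = 0.0286, the smallest it can give, and 0.0367 after Benjamini-Hochberg adjustment over the pairs). The genes had been named with results of these data in view, so these tests describe sizes rather than add independent support. The ratio of XRCC4 to LIG4 had log2 values of -2.23, -1.94, -2.21 and -1.97 in control and 0.56, 0.28, 0.29 and -0.01 in knockdown. Its change of 2.36 (SE 0.14, exact p = 0.0286) was the largest of the 18. RAD51D to XRCC2, both of the complex that also holds RAD51B and RAD51C, changed by -1.34 (SE 0.10), and RAD51C to XRCC3 by -0.52 (SE 0.12). BRCA1 gained on both of its partners, by 0.99 (SE 0.06) against BRIP1 and 0.57 (SE 0.06) against BARD1.

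Among the enzyme pairs, MSH6 gained on MSH3 by 0.62 (SE 0.07) and PARP1 on PARP2 by 0.43 (SE 0.04). ATR lost against ATRIP by 0.61 (-0.61, SE 0.11) and MDM2 against MDM4 by 0.46 (-0.46, SE 0.04). The remaining changes were smaller: 0.34 for ERCC2 to ERCC3, 0.33 for ERCC1 to ERCC4, 0.27 for FANCD2 to FANCI, 0.24 for MRE11 to NBN and 0.11 for XRCC5 to XRCC6. The chromosomal neighbours of FANCD2 and FANCI (the 50 nearest tested genes of each, by their median) differed the same way by 0.34, so that this ratio's change turned once they were taken off. Those of XRCC4 and LIG4 differed by 0.71, and those of each other pair that passed by 0.22 or less either way. The 4 pairs that did not pass were ATM to CHEK2 (-0.29, SE 0.08, adjusted p = 0.0643), XRCC1 to LIG3 (-0.20, SE 0.07, adjusted p = 0.0643), ATR to CHEK1 (-0.10, SE 0.06, adjusted p = 0.182) and BRCA2 to PALB2 (-0.02, SE 0.15, adjusted p = 0.914). In the same order, the neighbours of these pairs differed by -0.44, -0.36, 0.80 and -0.95, each more than the ratio itself changed. Ratios with the neighbours taken off were not tested. The 2 Ku subunits, which act as a dimer, changed by 0.11 relative to each other on the log2 scale, and XRCC4 and LIG4, which also act together, by 2.36.

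**Figure D3:**
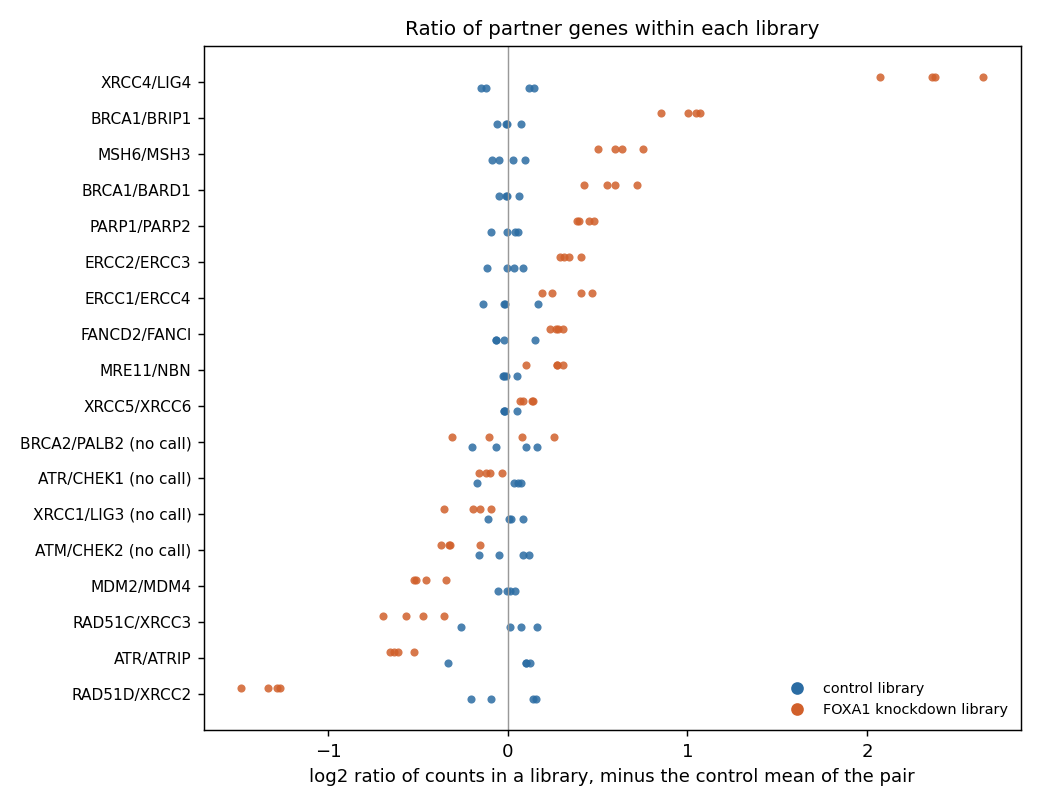
Log2 ratio of counts of 2 partner genes in each library, minus the control mean of the pair, for 18 pairs sorted by change (blue: control; orange: FOXA1 knockdown; "no call" marks an adjusted exact p above 0.05). XRCC4/LIG4 stands at the top with a change of 2.36 and RAD51D/XRCC2 at the bottom with -1.34.

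Some stretches of chromosome were lower as a whole in the knockdown libraries, so each member was set beside its neighbourhood, meaning the middle value among the 50 tested genes closest to it on its chromosome. This neighbourhood value, a log2 fold change, ran from -0.58 to 0.47 over the 56 members and lay below -0.3 for 10 of them. These were CHEK1, FANCI, BLM, BRCA2, TP53BP1, PMS2, FANCG, LIG4, FANCC and ATM, of which 3 were called higher, 5 lower and 2 not. CHEK1 had the lowest neighbourhood, at -0.58, against its own -0.13. BLM and FANCI on chromosome 15 shared a neighbourhood at -0.57, in which BLM was higher and FANCI lower. LIG4, whose neighbours were at -0.48, remained lower than them by 1.23 on the log2 scale (-1.23), and BLM was higher than its neighbours by 1.02.

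When the neighbourhood's median was taken off as an offset, 8 members were called in the direction opposite to their own log2 fold change. The offset was a fixed value, so the adjusted p-values given with it hold the spread between libraries only. They hold none of the spread among the neighbouring genes, and the log2 fold changes of all genes tested had quartiles of -0.50 and 0.53. Whether a member lay outside the spread of its own neighbours was not tested. CHEK1 stood at 0.46 (adjusted p = 6.87e-09), FANCI at 0.33 (2e-08), FANCG at 0.23 (0.00135), FANCC at 0.20 (0.0035), and, of those not called in the main test, PMS2 at 0.49 (2.65e-10) and BRCA2 at 0.42 (0.021). ERCC3 and MDM2, whose neighbours were at 0.21 and 0.15, turned to -0.14 (0.00268) and -0.13 (0.00485). ERCC4 (-0.07, adjusted p = 0.241) and MSH3 (-0.09, 0.176) also changed sign, without a call. FANCB (0.20, adjusted p = 0.108), LIG3 (0.09, 0.0913) and MRE11 (-0.08, 0.24) were no longer called. Another 9 members, not called in the main test, gained a call without a turn of sign. Among them were PALB2 (-0.51), RAD54L (0.38) and FANCD2 (0.27). With the offset, 34 members were called higher and 15 lower, where 75.8% of all genes tested were called. Across the 56 members the Pearson correlation between a member's log2 fold change and its neighbourhood's was 0.37, a description over genes that share the same 8 libraries.

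**Figure D4:**
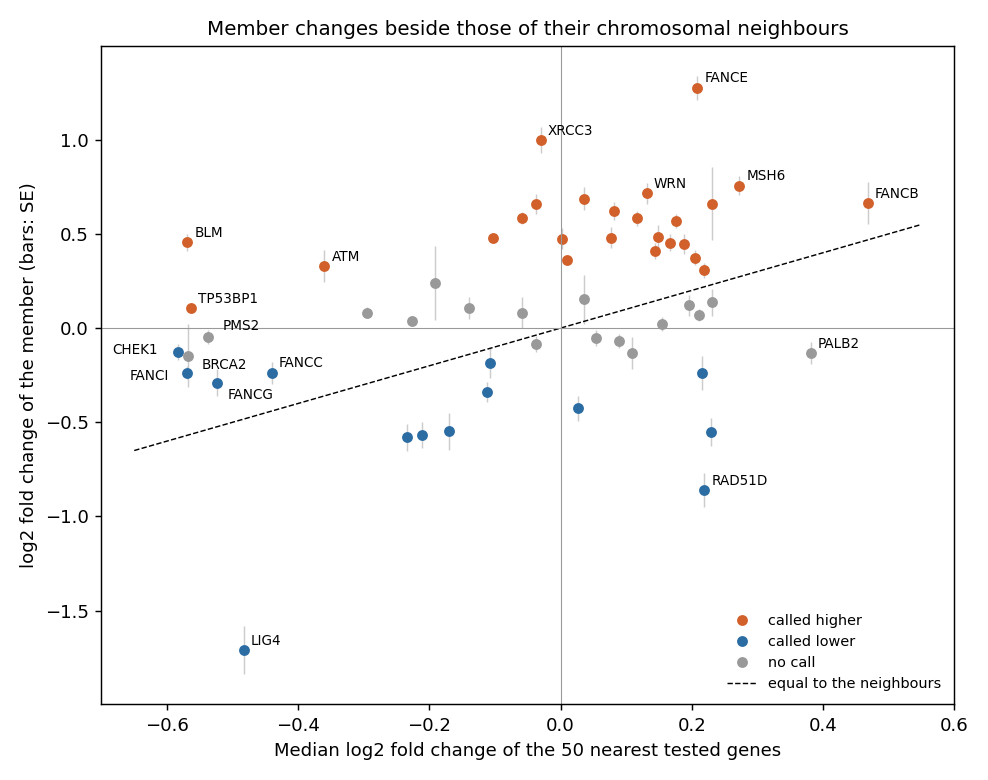
Log2 fold change of each of the 56 members (y axis, bars SE) against its neighbourhood value, from 50 genes (x axis, log2), coloured by call; the dashed line marks equality. The 10 members with neighbourhoods below -0.3 sit at the left, where LIG4 lies below the line and BLM, ATM and TP53BP1 lie above it.

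Beyond the 56, 99 of 100 other repair genes listed were tested (APLF had too few counts), and 49 were called higher, 23 lower and 27 not. These are 49.5% and 23.2%, where 39.4% and 37.7% of all genes tested were called higher and lower. The median log2 fold change of the other repair genes was 0.11, as for the members. Of them, 6 were at least 2-fold higher and 2 at least 2-fold lower, where the shares of all genes were 14.9% and 13.4%. DNA2, a nuclease of end resection, had 31.3, 29.7, 25.5 and 32.1 CPM in control and 91.2, 90.5, 89.8 and 85.7 CPM in knockdown (log2 fold change 1.59, SE 0.08, adjusted p = 2.72e-18). NEIL2, a glycosylase for oxidised bases, had 2.70, 2.99, 3.08 and 3.14 CPM in control and 9.25, 9.08, 8.54 and 8.64 CPM in knockdown (1.58, SE 0.06, adjusted p = 2.04e-13). Both rises were larger than that of FANCE. PARP3, a relative of PARP1 that acts at double-strand breaks, had 7.26 to 8.003 CPM in control and 1.35 to 1.71 CPM in knockdown (-2.32, SE 0.08, adjusted p = 3.64e-15). ALKBH3, which reverses alkylation, had 16.1 to 20.3 CPM in control and 4.83 to 7.05 CPM in knockdown (-1.58, SE 0.14, adjusted p = 2.38e-12). The fall of PARP3 was larger than that of LIG4, and the groups did not overlap for any of these 4 genes. With their neighbours' medians taken off, DNA2 stood at 1.31, NEIL2 at 1.64, PARP3 at -2.25 and ALKBH3 at -1.06.

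**Figure D5:**
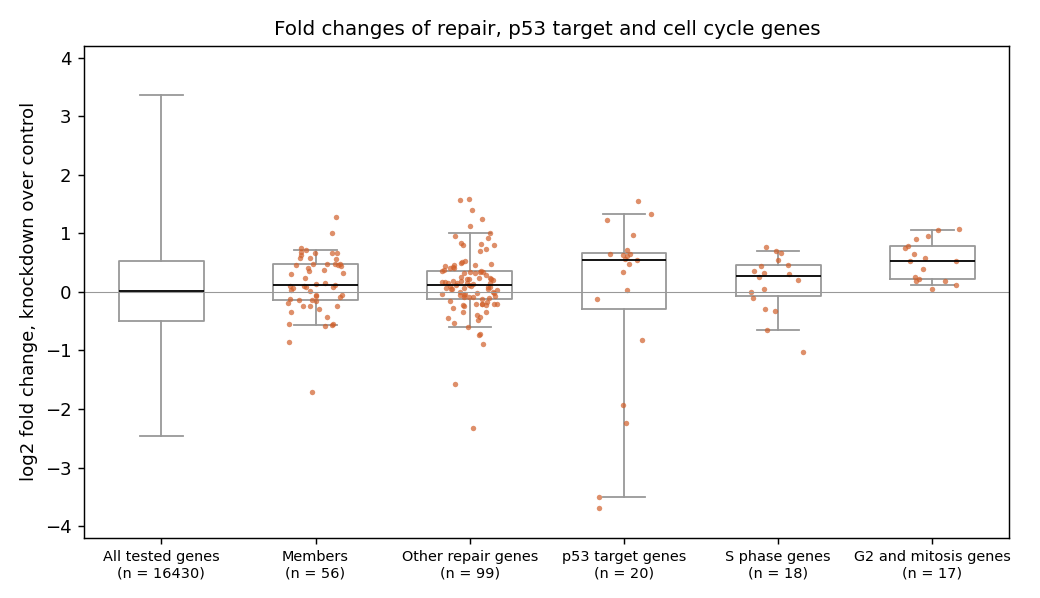
Log2 fold changes of the 56 members beside all 16430 genes tested, other repair genes, p53 targets, S phase genes and genes of G2 and mitosis (box: quartiles and median; whiskers: 5th to 95th percentile; points: single genes of a list). The members' box, from -0.14 to 0.48, is narrower than that of all genes, from -0.50 to 0.53, and the median of the 17 genes of G2 and mitosis is at 0.53.

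RefSeq promoter windows were found for 51 of the 56 members; FANCI, NBN, PRKDC, WRN and XRCC5 had no entry. Each 300-base window was searched on both strands. A forkhead core (TGTTTAC or TATTTAC) was present in 1 of the 51 windows (1.96%), that of MDM4, and in 6.05% of 27305 windows of all genes. The CHR element of late cell cycle genes (TTTGAA) was in 5 (9.80%, against 15.4%), and CCAAT in 22 (43.1%, against 35.7%). An E2F site (TTTGGCGC, TTTCCCGC or TTTCGCGC), the element through which E2F factors time genes to the G1 to S transition, was in 8 (15.7%), against 2.79% of all windows. These windows do not cover enhancers, where FOXA1 is known to bind. The members' windows had a median GC content of 64.3% and a median of 27 CG pairs of letters, against 58.3% and 14 over all windows. The shares of windows with each motif were not adjusted for this difference in letters.

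Of the 8 members with an E2F match, MSH6, XRCC2 and XRCC6 were called higher, FANCC lower, and FANCD2, MDM2, MSH3 and XPC not at all. Their median log2 fold change was 0.09, beside 0.11 for the other 48 members, of which 22 were called higher. The other 48 include FANCI, NBN, PRKDC, WRN and XRCC5, which had no window and were not searched. Of these, WRN and XRCC5 were called higher, FANCI and NBN lower, and PRKDC not. The matched stretches of the 3 genes that rose, the 1 that fell and FANCD2, which was not called, are shown to let their letters be compared, with the match and its reverse complement in capitals.
MSH6, chr2:47783137-47783166, plus strand: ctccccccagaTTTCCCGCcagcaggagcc
XRCC2, chr7:152676102-152676131, minus strand: tggcgttggtgGCGGGAAAgttgagtctct
XRCC6, chr22:41621326-41621344, plus strand: gtcgcttccctGCGCCAAA
FANCC, chr9:95317737-95317766, minus strand: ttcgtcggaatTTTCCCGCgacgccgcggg
FANCD2, chr3:10026424-10026453, plus strand: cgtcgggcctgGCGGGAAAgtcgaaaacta
The capitals in MSH6 and in this stretch of FANCC are the same letters, and XRCC2 and FANCD2 carry them on the other strand. MSH6 rose by 0.76 on the log2 scale and FANCC fell by 0.24, with XRCC2 at 0.48 and FANCD2 at 0.04. With their neighbours' medians taken off, MSH6 stood at 0.48, FANCC at 0.20, XRCC2 at 0.47 and FANCD2 at 0.27. The FANCC window held a further match, GCGCGAAA, 172 bases before the start. The part of these sites in the changes was not tested.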

How the data were processed

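RNA-seq libraries of SKBR3 cells, 4 control and 4 FOXA1 knockdown, were prepared from Trizol-extracted RNA and read as pairs of 101 bases on a NextSeq 550, per the labels' protocols. The authors deposited 1 table of whole-number counts per gene under Ensembl identifiers with a symbol column, per the file header. The submitters' processing notes name Salmon 1.9, FastQC, DESeq2 and hg38 without saying what each was used for, so the counts may be rounded estimates, and reads shared by overlapping genes or copies may have been split. The annotation release and the use of strand are not given in the sources used here. Some genes of these pathways are not reported here.

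Groups came from the sample titles. In R 4.3.3 with edgeR 4.0.16, filterByExpr (minimum 10 counts, total 15) kept 16430 of 30434 genes, libraries were scaled by TMM (factors 0.966 to 1.04), and groups were compared with glmQLFit (robust) and glmQLFTest, adjusted over all genes tested. The common dispersion of 0.00208 corresponds to a coefficient of variation of 4.56% between libraries. CPM are counts per 1000000 of the TMM-scaled total, and SEs come from the log2 CPM of the libraries with 0.5 added to each count. Limits from 3 counts cover counting error only. Ratios of partner genes used 0.5 added to each count and exact permutation over 70 divisions. Positions and overlaps came from GENCODE 29, matched by identifier without version (96.5% of genes). The scripts were tested on simulated data.

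The members, lists, pairs and rules were chosen with earlier results of these data known. Members given in full were those past a 2-fold change, the largest rise and fall of each role group, and 9 chosen for their role (ATM, ATR, CHEK1, CHEK2, BRCA1, BRCA2, PRKDC, PARP1 and MDM2). Of other repair genes and p53 targets, the 2 largest rises and falls were named, where the groups did not overlap and counts averaged 50 or more. Alternatives were other scalings (RLE, upper quartile, library totals), other filters, DESeq2 1.42.0, limma voom 3.58.1, a stricter threshold of 0.01, a replicate block, an offset for chromosomal neighbours, and leaving out each library.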

Additional observations from a re-analysis of the deposited data

Results flagged for a closer look

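In 7 of the 112 groups of 4 libraries (56 members in 2 groups), 1 library stood apart from the other three by Dixon's criterion, a gap of more than 0.829 of the group's whole range. Chance gives about 1 in 20, or 5.6 groups. Control replicate 3 was the library in 3 of them. For ATM it was low, at 34.1 CPM beside 41.8 to 42.5 CPM, a gap of 0.9132 of the range. MRE11 was likewise low there, at 34.9 CPM beside 41.2 to 41.9 CPM (0.9059), and XRCC3 was high, at 22.3 CPM beside 18.6 to 19.0 CPM (0.8902). Knockdown replicate 4 was low for XRCC1, at 34.7 CPM beside 36.7 to 36.8 CPM (0.9637), and for XRCC2, at 31.7 CPM beside 34.3 to 34.6 CPM (0.8925). It was high for PALB2, at 20.3 CPM beside 19.8 CPM in the others (0.8956). Knockdown replicate 1 was high for RAD54L, at 35.2 CPM beside 32.4 to 32.9 CPM (0.8335). Control replicate 3 also had the lowest control value for 31 of the 56 members.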

How the results depend on the processing

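Of the 39 members called, 30 kept their direction and call under all 18 alternatives run. The count of members called higher ran from 24 to 34 and of those called lower from 11 to 18. The count at least 2-fold higher was 2 with upper-quartile scaling, library totals, no filter, a mean of at least 50 counts, limma voom and the replicate block, and 1 to 2 when each library was left out. With the neighbourhood offset it was 3 (FANCE, XRCC3 and BLM), and the count at least 2-fold lower was 2 (LIG4 and RAD51D). The members' median log2 fold change was 0.17 with upper-quartile scaling, 0.20 with library totals and 0.26 with the neighbourhood offset. Under that offset the sign turned, with a call, for BRCA2 (0.42), CHEK1 (0.46), ERCC3 (-0.14), FANCC (0.20), FANCG (0.23), FANCI (0.33), MDM2 (-0.13) and PMS2 (0.49), and without one for ERCC4 (-0.07) and MSH3 (-0.09), by the subtraction of the neighbours' median. Another 9 members gained a call under the offset, and 3 lost theirs. Calls under the offset take the neighbours' median as fixed and leave out the spread among the neighbours. FOXA1 and the other repair genes kept their calls or counts within the limits set.

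Replicate numbers in the titles are shared by the groups, but same-numbered libraries did not deviate together (correlations of 0.02, 0.06, -0.03 and -0.00064), so the numbers were not taken as pairs. With the replicate block 26 members were called higher and 14 lower. Under a sign-flip test within replicate numbers 0 of the 18 partner ratios passed, since 0.125 is the smallest p it can give. Partner ratios were not tested with libraries left out, where the smallest p is 0.0571. Depth limits RAD51B most, with 24 to 47 counts a library.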

Other observations

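Some complexes of other repair genes, chosen after their values were seen, are given here as values from the edgeR test. RPA1, RPA2 and RPA3, the subunits that coat single-stranded DNA, all rose, with log2 fold changes of 0.49 (SE 0.03), 0.44 (SE 0.03) and 0.41 (SE 0.04). Of the 5 TFIIH subunits listed, GTF2H2 (0.48, SE 0.10), GTF2H3 (0.53, SE 0.03), GTF2H4 (0.42, SE 0.07) and GTF2H5 (0.23, SE 0.06) rose, and GTF2H1 fell by 0.21 (SE 0.02). With the median of its 50 nearest tested genes taken off, GTF2H1 stood at 0.20 and GTF2H5 at -0.0013. In the complex that carries BRCA1 to ubiquitin at breaks, UIMC1 (RAP80) rose from 23.9 ± 1.2 to 52.1 ± 1.1 CPM (SD, n = 4; log2 fold change 1.13, SE 0.04), and stood 0.52 above its neighbours. ABRAXAS1 (0.73, SE 0.08) rose as well, BABAM1 (0.11, SE 0.04) rose but stood at -0.11 with its neighbours' median taken off, BRCC3, its deubiquitinase, fell by 0.35 (SE 0.07), and BABAM2 was not called (-0.01, SE 0.03). MDC1, the scaffold on marked chromatin at breaks, rose from 87.5 ± 1.5 to 229.4 ± 4.9 CPM (SD, n = 4; 1.39, SE 0.02). H2AX, the histone it reads, was not called (0.07, SE 0.04, adjusted p = 0.125), and stood 0.36 above its neighbours.

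Among genes of uracil and thymine repair, UNG (1.01, SE 0.04) and TDG (0.81, SE 0.04) rose on the log2 scale, MBD4 rose by 0.19 (SE 0.08), and SMUG1 was not called (-0.05, SE 0.06, adjusted p = 0.421). ERCC5 (XPG), the nuclease that cuts 3′ to a bulky lesion, fell from 58.7 ± 3.7 to 31.6 ± 1.1 CPM (SD, n = 4; -0.90, SE 0.05), more than any nucleotide excision gene among the 56 members. Its neighbours were at -0.42, and with their median taken off ERCC5 stood at -0.47. UVSSA (0.79, SE 0.06) and ERCC8 (0.34, SE 0.08), of the branch coupled to transcription, rose, but stood only 0.20 and 0.13 above their neighbours. ERCC6 was not called (0.08, SE 0.04, adjusted p = 0.206) and stood below its neighbours by 0.34 (-0.34).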
